A study of Mus musculus with 9 samples.

Results

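The TNF receptor family members examined here were 10 genes, Cd40, Tnfrsf13b, Tnfrsf13c, Fas, Tnfrsf1a, Tnfrsf1b, Tnfrsf8, Ltbr, Cd27 and Ngfr, taken by gene symbol from a deposited RNA-seq table of 17596 genes, in which all 10 were listed. The 9 libraries came from primary splenic B cells of mice aged 6 to 8 weeks. All mice carried Mb1Cre, which expresses Cre recombinase in the B cell lineage. Mb1Cre mice were the control, and Mct1f/fMb1Cre mice, on a C57BL/6J background, also carried 2 copies of a floxed Mct1 allele made with CRISPR-Cas9, with loxP sites around exon 1 and intron 3. There were 2 Mb1Cre and 2 Mct1f/fMb1Cre libraries of naïve cells (day 0), which received no treatment, and 2 Mb1Cre and 3 Mct1f/fMb1Cre libraries of cells cultured for 3 days in RPMI-1640 medium with LPS at 10 μg/ml together with IL-4 at 50 ng/ml (day 3), a protocol that drives class switch recombination in vitro. The labels do not name the mouse behind each library, so that p-values measure the spread between libraries, which may be technical in part.

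Receptors of the TNF family are membrane proteins that bind trimeric ligands of the TNF family and recruit TRAF adaptors or, where they carry a death domain, adaptors that can lead to caspase activation. Many of them activate NF-κB, through the canonical IKK complex or through the non-canonical pathway that NIK starts. In B cells, the BAFF receptor (Tnfrsf13c) sustains survival of mature cells, TACI (Tnfrsf13b) and CD40 take part in class switching and antibody responses, and Fas is a death receptor of activated cells.

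Because the members differed in how they changed from day 0 to day 3, their promoter windows were searched on both strands. The windows were those of RefSeq (GRCm38.p6, 300 bases, from 250 before to 50 after the transcription start). The search was for the NF-κB consensus and for the letters TTCNNNNGAA, the spacing that STAT6, the factor downstream of IL-4, is known to prefer. Windows were found for 9 of the 10 members. The NF-κB consensus was in the window of 1 of these 9 members, Tnfrsf8, and in 4.51% of all 32851 promoters. The TTCNNNNGAA letters were in the window of 1 of the 9, Ltbr, and in 6.95% of all promoters. Members were counted by gene and the shares by promoter entry. No other member window held a match, and both matches are given whatever the change of the gene in culture. They are a description of letters, not evidence of a bound site. Both are written 5′ to 3′ on the strand of the gene, with the match in capitals.
Tnfrsf8 (chr4:145315315-145315340, minus strand, match at -168 to -159 from the start, read on the opposite strand): aaaacgcaGGGGAGCCCCctgcgtgc
Ltbr (chr6:125314035-125314060, minus strand, match at -167 to -158 from the start): agccaggcTTCCGAAGAAaggtggag

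Expression was given as FPKM, the number of fragments scaled to transcript length and to all mapped fragments, so that levels can be compared between genes per length, while the read depth behind each value is unknown. The summed FPKM of all genes ranged from 477079 to 491459 on day 0 and from 547355 to 563586 on day 3. Slc16a1, the symbol under which the table lists Mct1, was at 4.33 and 3.80 FPKM in Mb1Cre and 3.71 and 4.06 FPKM in Mct1f/fMb1Cre cells on day 0, and at 22.6 and 23.0 FPKM against 10.8, 9.81 and 9.50 FPKM on day 3, so that the targeted transcript was lower in the Mct1f/fMb1Cre libraries on day 3 and overlapped on day 0. Ddx3y, a Y-linked gene, was at 0.24 and 0.02 FPKM in the Mb1Cre libraries of day 0 and at 14.7 and 16.5 FPKM in those of day 3, so that the effect of culture in the control cannot be told apart from a difference in the sex of the mice. It was at 31.1 and 0.20 FPKM in the Mct1f/fMb1Cre libraries of day 0 and between 15.4 and 16.9 FPKM in those of day 3. In these cells, too, culture and the sex of the mice cannot be fully told apart. Mct1f/fMb1Cre replicate 1 of day 0 was high in the neutrophil gene S100a8 (304 FPKM against 107 to 131 FPKM in the other day 0 libraries), and Mb1Cre replicate 1 of day 0 was high in the collagen gene Col1a1 (28.8 FPKM against 0.73 to 1.25 FPKM). Summed over 9 B cell markers the libraries ranged from 4860 to 5293 FPKM on day 0 and from 2716 to 2856 FPKM on day 3, with no marker at 0 in any group.

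In naïve cells the BAFF receptor was the most abundant member. Tnfrsf13c was at 262 and 264 FPKM in Mb1Cre and 227 and 253 FPKM in Mct1f/fMb1Cre cells, which was 57.3% and 55.7% of the summed FPKM of the 10 members. The order of levels from high to low was Tnfrsf13c, Tnfrsf13b, Cd40, Tnfrsf1b, Tnfrsf1a, Ltbr, Cd27, Fas, Ngfr and Tnfrsf8 in both genotypes, and no neighbours in this order overlapped between libraries. On day 3 the order in Mb1Cre cells was Tnfrsf13c, Tnfrsf13b, Cd40, Fas, Tnfrsf8, Tnfrsf1b, Cd27, Tnfrsf1a, Ltbr and Ngfr, where Cd27 overlapped with Tnfrsf1a and Tnfrsf1a with Ltbr. In Mct1f/fMb1Cre cells the same 6 genes led in the same order, with Tnfrsf8 and Tnfrsf1b overlapping, and the last 4 (Tnfrsf1a, Cd27, Ngfr, Ltbr) overlapped each with the next. Thus Fas and Tnfrsf8 moved up to the middle of the order, and 4 members, Tnfrsf1a, Ltbr, Cd27 and Ngfr, were under 1 FPKM in every day 3 library.

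**Figure D1:**
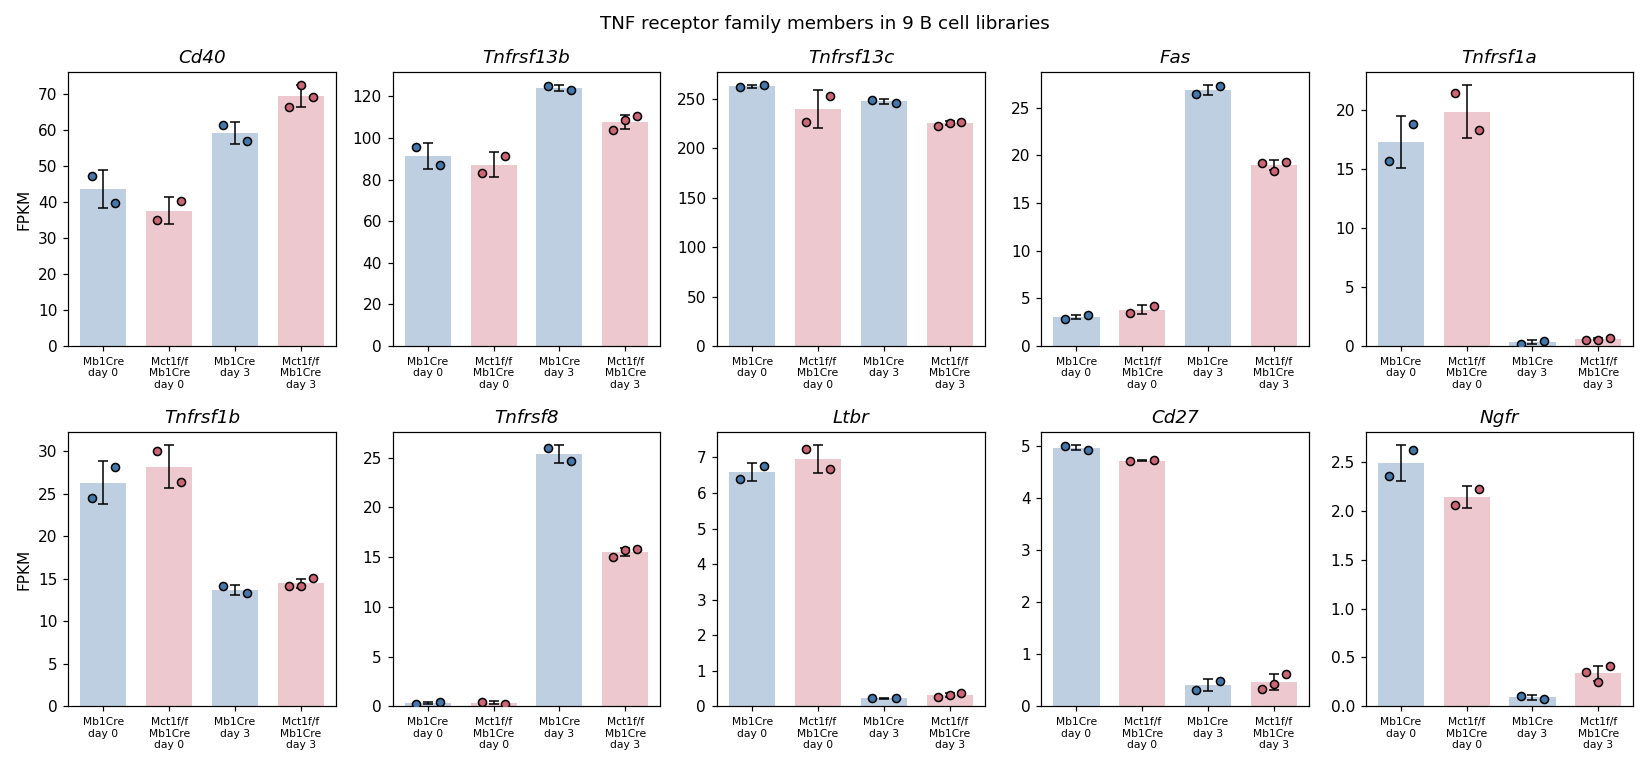
FPKM of the 10 members, a panel for each gene with its own linear axis starting at 0; points are libraries, bars are group means and error bars are the SD over 2 libraries (3 for Mct1f/fMb1Cre on day 3). Tnfrsf13c stays between 223 and 264 FPKM in all 9 libraries, Fas and Tnfrsf8 are high on day 3, and Tnfrsf1a, Ltbr, Cd27 and Ngfr are near 0 on day 3.

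Culture with LPS and IL-4 was examined as day 3 against day 0 within each genotype. No day 3 library came from cells without LPS and IL-4. The effects of LPS, of IL-4 and of time in culture therefore cannot be told apart. In Mb1Cre cells 2 of the 10 members rose (Fas and Tnfrsf8) and 5 fell (Tnfrsf1a, Tnfrsf1b, Ltbr, Cd27 and Ngfr), where a call needed a limma adjusted p under 0.05 together with a log2 fold change beyond 0.5 in either direction. Fold changes were taken on the log2(FPKM + 1) scale, which understates the change of low genes. Of all 10823 genes tested, 24.8% were called higher and 33% lower. In Mct1f/fMb1Cre cells 3 members rose (Cd40, Fas and Tnfrsf8) and the same 5 fell, where 23.4% of all genes were called higher and 33.2% lower. The median log2 fold change of the members was -0.49 in Mb1Cre and -0.50 in Mct1f/fMb1Cre cells, against -0.12 and -0.14 over all genes tested. With the libraries scaled by the median of ratios, 9 members were called in each genotype, as Tnfrsf13b in both genotypes and Cd40 in Mb1Cre cells joined those that rose. All 10 members passed the filter, a mean FPKM of 1 or more across the 9 libraries, but Tnfrsf1a, Ltbr, Cd27 and Ngfr did so through their day 0 values, and Tnfrsf8 through its day 3 values.

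The BAFF receptor did not pass the test in either genotype. Tnfrsf13c was at 249 and 246 FPKM in Mb1Cre and 223, 226 and 227 FPKM in Mct1f/fMb1Cre cells on day 3. Its log2 fold change against day 0 was -0.09 ± 0.0513 (SE, limma adjusted p = 0.140) in Mb1Cre and -0.09 ± 0.0468 (limma adjusted p = 0.103) in Mct1f/fMb1Cre cells, and it turned to 0.13 in both genotypes when libraries were scaled by the median of ratios, which moved the median of all genes to 0.06. Tnfrsf13b, the gene of TACI, which binds both BAFF and APRIL, was at 95.6 and 86.8 FPKM in Mb1Cre and 83.0 and 91.6 FPKM in Mct1f/fMb1Cre cells on day 0, and at 125 and 123 FPKM against 104, 109 and 111 FPKM on day 3. The day 3 libraries were above all day 0 libraries in both genotypes. The log2 fold change was 0.44 ± 0.0598 (SE, limma adjusted p = 3.25e-05) in Mb1Cre and 0.30 ± 0.0546 (limma adjusted p = 3.20e-04) in Mct1f/fMb1Cre cells, both under the limit of 0.5, while the median-of-ratios scaling placed it at 0.65 and 0.52, past the limit. In the annotation Tnfrsf13b (chr11:61126283-61153170) overlaps the neighbouring gene Usp22 by 1390 bases, and whether the counting used strand is not given in the sources used here, so that its values are uncertain to that extent.

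Cd40, the receptor through which T helper cells license B cells, was at 47.2 and 39.8 FPKM in Mb1Cre and 34.96 and 40.2 FPKM in Mct1f/fMb1Cre cells on day 0. On day 3 it was at 61.2 and 56.9 FPKM in Mb1Cre and at 66.5, 72.5 and 69.0 FPKM in Mct1f/fMb1Cre cells. Within each genotype the days did not overlap. The rise was called in Mct1f/fMb1Cre cells (log2 fold change 0.87 ± 0.0782, SE, limma adjusted p = 9.39e-07, 1.85-fold in mean FPKM), and in Mb1Cre cells the log2 fold change was 0.44 ± 0.0857 (limma adjusted p = 5.95e-04), under the limit. Without Mb1Cre replicate 1 of day 0, which stood apart in Col1a1, both Cd40 (0.56) and Tnfrsf13b (0.51) passed the limit in Mb1Cre cells.

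Among the members, Fas and Tnfrsf8 rose the most. Fas, the death receptor of activated lymphocytes, was at 2.87 and 3.23 FPKM in Mb1Cre and 3.46 and 4.16 FPKM in Mct1f/fMb1Cre cells on day 0, and at 26.5 and 27.2 FPKM against 19.2, 18.4 and 19.4 FPKM on day 3. Its log2 fold change was 2.78 ± 0.0768 (SE, limma adjusted p = 5.92e-11) in Mb1Cre cells, 8.80-fold in mean FPKM. In Mct1f/fMb1Cre cells it was 2.06 ± 0.0701 (limma adjusted p = 2.62e-10), 4.99-fold in mean FPKM. Tnfrsf8, the gene of CD30, a receptor of activated T and B cells, was at 0.23 and 0.39 FPKM in Mb1Cre and 0.44 and 0.23 FPKM in Mct1f/fMb1Cre cells on day 0. On day 3 it was at 26.0 and 24.7 FPKM in Mb1Cre and 15.04, 15.7 and 15.9 FPKM in Mct1f/fMb1Cre cells. From a level under 0.5 FPKM it thus came to lie above Tnfrsf1b in Mb1Cre cells. The log2 fold change was 4.33 ± 0.0910 (SE, limma adjusted p = 1.06e-11) in Mb1Cre and 3.63 ± 0.0831 (limma adjusted p = 1.45e-11) in Mct1f/fMb1Cre cells, which was 81.8-fold and 46.3-fold in mean FPKM.

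The receptors of TNF and lymphotoxin fell. Tnfrsf1a, the gene of TNFR1, which carries a death domain, was at 15.7 and 18.8 FPKM in Mb1Cre and 21.5 and 18.3 FPKM in Mct1f/fMb1Cre cells on day 0, and at 0.21 and 0.45 FPKM against 0.52, 0.55 and 0.66 FPKM on day 3. Its mean FPKM was 52.4-fold lower on day 3 in Mb1Cre cells (log2 fold change -3.78 ± 0.118, SE, limma adjusted p = 1.44e-10) and 34.5-fold lower in Mct1f/fMb1Cre cells (-3.72 ± 0.107, limma adjusted p = 7.20e-11). Tnfrsf1b, the gene of TNFR2, which lacks a death domain, was at 24.6 and 28.1 FPKM in Mb1Cre and 30.0 and 26.4 FPKM in Mct1f/fMb1Cre cells on day 0. On day 3 it was at 14.1 and 13.3 FPKM in Mb1Cre and 14.2, 14.1 and 15.1 FPKM in Mct1f/fMb1Cre cells, so that a clear level remained. The fold was 1.92-fold lower in Mb1Cre (log2 fold change -0.89 ± 0.0772, SE, limma adjusted p = 7.07e-07) and 1.95-fold lower in Mct1f/fMb1Cre cells (-0.91 ± 0.0705, limma adjusted p = 2.40e-07). The day 3 transcripts of the 2 TNF receptors were thus nearly all of Tnfrsf1b.

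Ltbr, the lymphotoxin β receptor, known mainly from stromal and myeloid cells, was at 6.40 and 6.76 FPKM in Mb1Cre and 7.23 and 6.67 FPKM in Mct1f/fMb1Cre cells on day 0, and at 0.22 and 0.24 FPKM against 0.27, 0.32 and 0.36 FPKM on day 3. It was 28.6-fold lower in Mb1Cre (log2 fold change -2.62 ± 0.0866, SE, limma adjusted p = 2.26e-10) and 21.9-fold lower in Mct1f/fMb1Cre cells (-2.59 ± 0.0790, limma adjusted p = 1.12e-10). Cd27, a co-stimulatory receptor of T and NK cells and of some B cells, was at 5.01 and 4.94 FPKM in Mb1Cre and 4.72 and 4.73 FPKM in Mct1f/fMb1Cre cells on day 0. On day 3 it was at 0.32 and 0.49 FPKM in Mb1Cre and 0.34, 0.43 and 0.63 FPKM in Mct1f/fMb1Cre cells. It was 12.3-fold lower in Mb1Cre (log2 fold change -2.09 ± 0.109, SE, limma adjusted p = 9.28e-09) and 10.1-fold lower in Mct1f/fMb1Cre cells (-1.97 ± 0.0999, limma adjusted p = 6.50e-09). The whole of Cd27 (chr6:125232620-125237136) is overlapped by E130112N10Rik and Mir8113, so that reads of these genes may have counted towards it. Ngfr, the p75 neurotrophin receptor, known from neurons and follicular dendritic cells, was at 2.36 and 2.62 FPKM in Mb1Cre and 2.06 and 2.22 FPKM in Mct1f/fMb1Cre cells on day 0, and at 0.11 and 0.07 FPKM against 0.35, 0.25 and 0.41 FPKM on day 3. Its log2 fold change was -1.68 ± 0.104 (SE, limma adjusted p = 3.86e-08) in Mb1Cre and -1.23 ± 0.0946 (limma adjusted p = 2.33e-07) in Mct1f/fMb1Cre cells. None of the libraries of day 3 overlapped with those of day 0 for these 5 receptors, which does not set them apart. The days did not overlap for 10 of the 10 members in Mb1Cre and 9 in Mct1f/fMb1Cre cells. For the 31 adaptors and signal transducers described below, these counts were 29 and 27. The share over all genes was not taken.

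**Figure D2:**
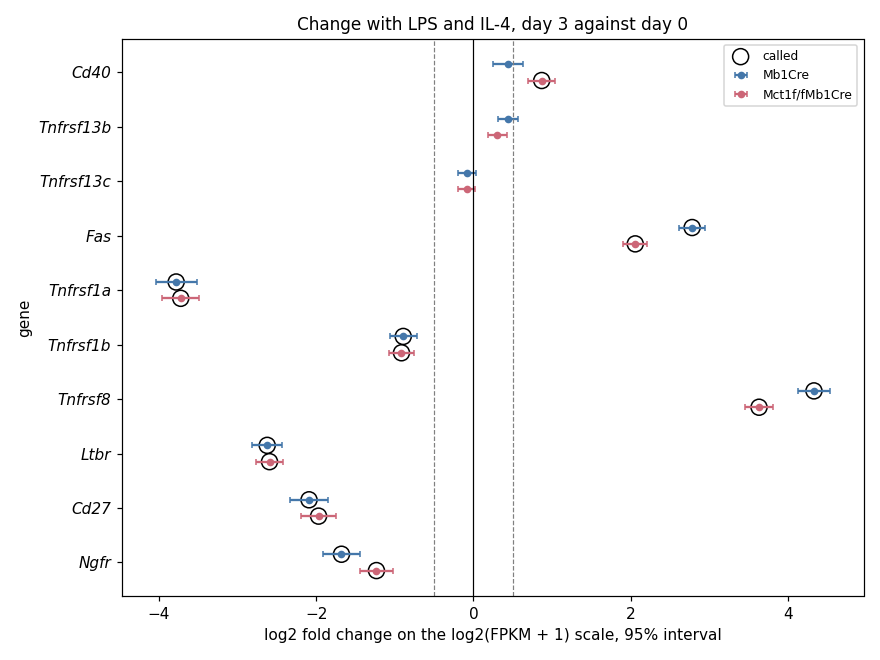
Log2 fold change of day 3 against day 0 on the log2(FPKM + 1) scale (horizontal axis) for each member in Mb1Cre (blue) and Mct1f/fMb1Cre cells (red); bars are 95% intervals from limma, rings mark called changes and dashed lines the limit of 0.5. Fas and Tnfrsf8 lie far to the right, less so in Mct1f/fMb1Cre cells, and Tnfrsf1a, Ltbr, Cd27 and Ngfr far to the left.

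Markers of most other cell types were lower after the same 3 days. The summed level of 9 myeloid markers ranged from 1060 to 1272 FPKM in Mb1Cre and from 1157 to 1916 FPKM in Mct1f/fMb1Cre cells on day 0, and from 17.7 to 19.2 FPKM and from 24.5 to 27.7 FPKM on day 3, a mean 63.3-fold and 58.2-fold lower. All 9 were called lower in both genotypes. The sum of 7 T and NK cell markers went from 41.6 to 46.9 FPKM on day 0 to 2.16 to 2.19 FPKM on day 3 in Mb1Cre cells (20.4-fold lower) and from 39.5 to 41.1 FPKM to 2.02 to 2.31 FPKM in Mct1f/fMb1Cre cells (18.6-fold lower). The sum of 5 stromal and endothelial markers was 7.34-fold and 4.44-fold lower on day 3, and that of 6 erythroid markers 13.9-fold and 27.0-fold lower. Most of the stromal and endothelial sum on day 0 was Pecam1 (means of 89.7 and 84.4 FPKM). In Mct1f/fMb1Cre cells Pecam1, Cdh5 and Pdgfrb were lower in mean on day 3. Col1a1 (0.735 to 1.69 FPKM) and Col3a1 (0.09 to 0.15 FPKM) were higher there. Of the 2 tested genes of this list, 1 was called lower in Mct1f/fMb1Cre cells. The sum of the 9 B cell markers was 1.85-fold and 1.81-fold lower. The plasma cell list of 5 genes went the other way, with sums of 185 to 197 FPKM on day 0 and 457 to 473 FPKM on day 3 in Mb1Cre cells, and of 239 to 282 FPKM and 379 to 408 FPKM in Mct1f/fMb1Cre cells. In Mb1Cre cells 4 of its genes were called higher and 1 lower, and in Mct1f/fMb1Cre cells 2 higher and 2 lower. Jchain, the joining chain of secreted IgM and IgA, differed in its response between the genotypes (interaction -1.44 ± 0.197, SE, limma adjusted p = 0.00246). Already on day 0 Jchain was called higher in Mct1f/fMb1Cre cells, at a mean of 139 against 70.1 FPKM (log2 fold change 0.97, limma adjusted p = 0.0193). On day 3 it was lower in these cells and not called (-0.47, limma adjusted p = 0.0377). No marker of the myeloid, T and NK or stromal lists was at 0 in all libraries of a group, while 2 erythroid markers in Mb1Cre and 3 in Mct1f/fMb1Cre cells were at 0 in all day 3 libraries. The drops of Tnfrsf1a, Ltbr, Cd27 and Ngfr therefore came with a drop of other cell types' markers, whose part in them was not tested, and in bulk RNA fewer cells of a type and less RNA per cell cannot be told apart.

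**Figure D3:**
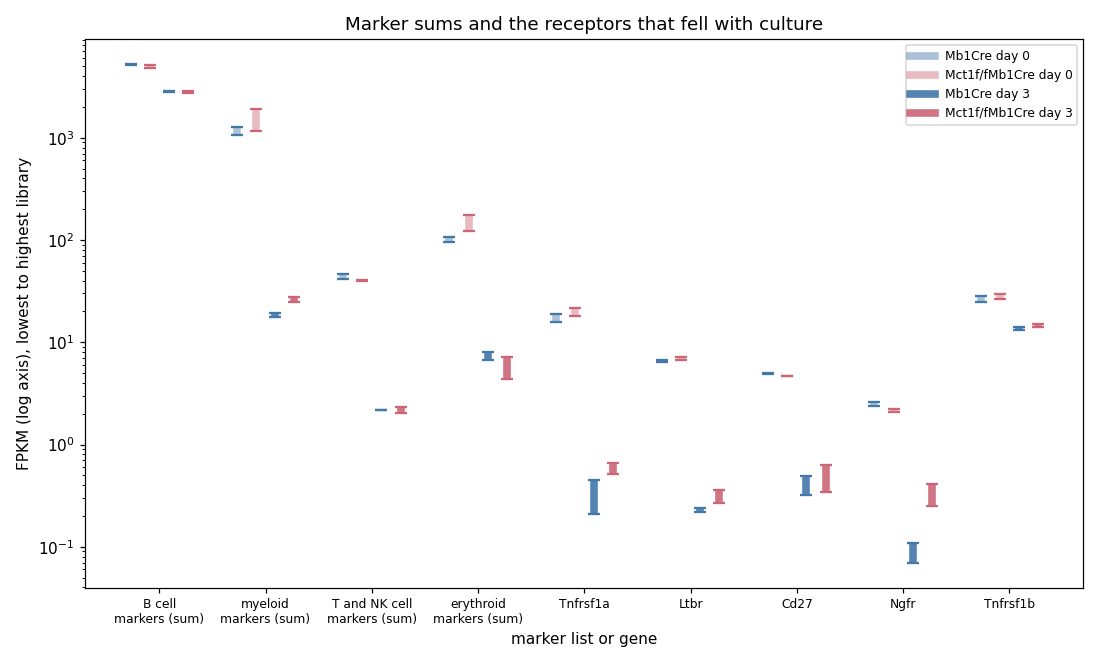
Range from the lowest to the highest library, in FPKM on a log axis, of the summed markers of 4 cell types and of the 5 receptors that fell, in the 4 groups in the order of the legend. Myeloid and T and NK cell sums drop by far more than the B cell sum between day 0 and day 3, and Tnfrsf1a, Ltbr, Cd27 and Ngfr drop with them while Tnfrsf1b drops less.

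The effect of Mct1 deficiency in activated cells was examined on day 3. Tnfrsf8 was the only member called, with lower values in Mct1f/fMb1Cre cells, where 1.53% of all genes were called lower, and 0 members were called higher, where 0.887% of all genes were. The 3 Mct1f/fMb1Cre libraries of Tnfrsf8 (15.04 to 15.9 FPKM) lay below both Mb1Cre libraries (24.7 and 26.0 FPKM). Its mean of 15.5 ± 0.429 FPKM (SD, n = 3) was 61.2% of that of the control, 25.4 ± 0.912 FPKM (SD, n = 2). The log2 fold change was -0.67 ± 0.0831 (SE, 95% interval -0.857 to -0.489, limma adjusted p = 4.57e-04), and leaving out each library in turn gave values between -0.71 and -0.64.

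Fas was lower in Mct1f/fMb1Cre cells, with 19.0 ± 0.520 FPKM (SD, n = 3) against 26.8 ± 0.544 FPKM (SD, n = 2) and no overlap. Its log2 fold change of -0.48 ± 0.0701 (SE, limma adjusted p = 0.00133), at 70.8% of the control, was just under the limit of 0.5 and so was not called. Tnfrsf13b was at 108 ± 3.35 FPKM (SD, n = 3), 86.8% of the 124 ± 1.48 FPKM (SD, n = 2) of the control, with a log2 fold change of -0.20 ± 0.0546 (SE, limma adjusted p = 0.0304), also under the limit. With the adjusted p alone, 3 members (Tnfrsf8, Fas and Tnfrsf13b) passed, all in the direction of lower values, where 15.2% of all genes passed in either direction. Tnfrsf13c was at 91.0% of the control (log2 fold change -0.14 ± 0.0468, SE, limma adjusted p = 0.0783).

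The other 6 members had higher means in Mct1f/fMb1Cre cells and none of them passed the test. Cd40 was at 69.3 ± 3.03 FPKM (SD, n = 3) against 59.1 ± 3.08 FPKM (SD, n = 2), 117% of the control and without overlap (log2 fold change 0.23 ± 0.0782, SE, limma adjusted p = 0.0766). Tnfrsf1b, with overlapping libraries, had a log2 fold change of 0.07 with a 95% interval of -0.0827 to 0.229 (limma adjusted p = 0.548). The log2 fold changes of the low genes were 0.25 for Tnfrsf1a, 0.29 for Ngfr, 0.10 for Ltbr and 0.06 for Cd27 (limma adjusted p between 0.0628 and 0.761). With a pseudocount of 0.1 in place of 1, Tnfrsf1a (0.71, limma adjusted p = 0.0493) and Ngfr (1.19, limma adjusted p = 0.00647) passed the test, at levels under 1 FPKM in all day 3 libraries. Of the 9 myeloid markers, 2 were also called higher in Mct1f/fMb1Cre cells on day 3, and the median log2 fold change of the list was -0.02, with S100a8, S100a9, Mpo, Elane and Csf3r lower in mean (39.9% to 95.7% of the control) and not called. Lyz2, lysozyme of macrophages and granulocytes, was at 11.5 and 10.0 FPKM in Mb1Cre and 16.8, 17.6 and 20.4 FPKM in Mct1f/fMb1Cre cells. Adgre1, the F4/80 antigen of macrophages, was at 0.44 and 0.58 FPKM against 1.50, 1.37 and 1.39 FPKM. Their part in the higher means of Tnfrsf1a, Ngfr and Ltbr was not tested. The genotypes did not overlap for 8 of the 10 members, all but Tnfrsf1b and Cd27, and for 47.1% of all genes tested.

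**Figure D4:**
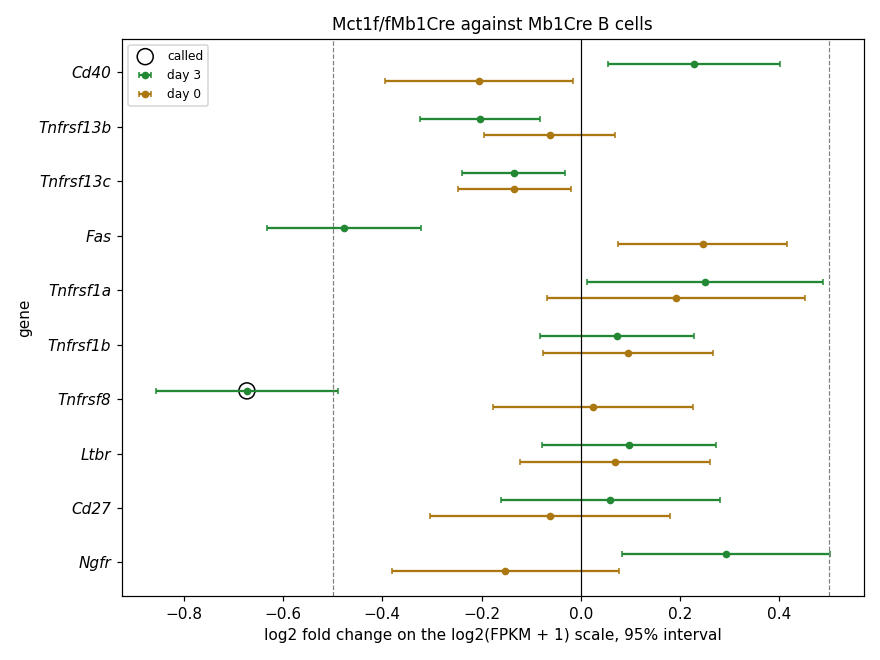
Log2 fold change of Mct1f/fMb1Cre against Mb1Cre cells on the log2(FPKM + 1) scale (horizontal axis) for each member on day 3 (green) and day 0 (brown); bars are 95% intervals from limma, the ring marks the called change and dashed lines the limit of 0.5. Tnfrsf8 on day 3 lies at -0.67 and Fas on day 3 at -0.48, whereas Fas on day 0 lies to the right of 0.

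In naïve cells 0 of the 10 members were called between the genotypes by limma, where 0.277% of all genes were. The share of all genes at an unadjusted p under 0.05 was not taken, and 3 members were under it. These were Fas (log2 fold change 0.25, limma adjusted p = 0.265), Tnfrsf13c (-0.13, limma adjusted p = 0.353) and Cd40 (-0.20, limma adjusted p = 0.397). Fas was thus at 125% of the control mean on day 0, and Cd40 at 86.4%, both in the direction opposite to day 3. For Tnfrsf8, at 0.31 ± 0.113 FPKM in Mb1Cre and 0.335 ± 0.148 FPKM in Mct1f/fMb1Cre cells (SD, n = 2 each), the log2 fold change was 0.03 (limma adjusted p = 0.946).

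Whether the change from day 0 to day 3 differed between the genotypes was tested by the interaction of day and genotype. This was called for 2 of the 10 members, Fas and Tnfrsf8, where 3.23% of all genes were called in either direction. The rise of Fas was smaller in Mct1f/fMb1Cre cells by -0.72 ± 0.104 on the log2 scale (SE, 95% interval -0.954 to -0.493, limma adjusted p = 0.00309). That of Tnfrsf8 differed by -0.70 ± 0.123 (SE, 95% interval -0.971 to -0.426, limma adjusted p = 0.00776). With a pseudocount of 0.1 the Tnfrsf8 value was -0.77 with a limma adjusted p of 0.141 and the call was lost, and its day 0 values were all under 0.5 FPKM. Cd40 rose by 0.43 ± 0.116 more in Mct1f/fMb1Cre cells (SE, limma adjusted p = 0.0432), under the limit, and was past it at 0.53 without Mct1f/fMb1Cre replicate 2 of day 0 and at 0.55 without Mb1Cre replicate 2 of day 0. The remaining 7 members had limma adjusted p between 0.0756 (Ngfr, 0.44) and 0.992 (Tnfrsf13c). With the pseudocount of 0.1, Ngfr gained a call at 1.40 (limma adjusted p = 0.0313), at levels under 1 FPKM in all day 3 libraries. The libraries of day 0 differed in Ddx3y between and within the genotypes. The interaction and the day 0 comparison therefore carry the same limit as culture in either genotype. Genotype or day and the sex of the mice cannot be fully told apart. Without Mct1f/fMb1Cre replicate 1 of day 0, high in S100a8, the called members were again Fas and Tnfrsf8.

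Several members are neighbours in the genome (RefSeq, GRCm38.p6). Cd27, Ltbr (chr6:125306571-125313885) and Tnfrsf1a (chr6:125349723-125362483) lie within 129864 bases of chromosome 6, with the protein-coding genes Tuba3a and Scnn1a between them, and all 3 fell in culture. Tnfrsf1b (chr4:145212368-145246870) and Tnfrsf8 (chr4:145267132-145315164) lie 20261 bases apart on chromosome 4 with no protein-coding gene between them, and Tnfrsf1b fell whereas Tnfrsf8 rose. The other members are alone, namely Cd40 (chr2:165055614-165071654), Tnfrsf13c (chr15:82221742-82224380), Fas (chr19:34290647-34327775), and Tnfrsf13b and Ngfr (chr11:95568818-95587698), which are 34415647 bases apart.

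The ligands of the family were examined as a list of 19 genes, of which 8 passed the filter. On day 3, 0 were called higher and 1 was called lower in Mct1f/fMb1Cre cells, Tnfsf9, the ligand of the co-stimulatory receptor 4-1BB. In this comparison 0.887% of all genes were called higher and 1.53% lower. Tnfsf9 was at 9.43 and 10.8 FPKM in Mb1Cre and 5.58, 5.40 and 5.78 FPKM in Mct1f/fMb1Cre cells, without overlap (log2 fold change -0.75 ± 0.0903, SE, limma adjusted p = 3.89e-04). It rose in culture in both genotypes (1.89 in Mb1Cre and 1.25 in Mct1f/fMb1Cre cells), and the interaction of -0.64 was called (limma adjusted p = 0.0159). Of all genes tested, 24.8% were called higher and 33% lower in culture in Mb1Cre cells, and 23.4% and 33.2% in Mct1f/fMb1Cre cells. Among the ligands, 1 rose and 5 fell in each genotype. Of these, Ltb, the membrane subunit of the ligand of Ltbr, changed by -3.28 in Mb1Cre and -3.03 in Mct1f/fMb1Cre cells, Tnfsf13, the gene of APRIL, which binds TACI, by -2.04 and -2.19, and Tnfsf12, the gene of TWEAK, by -1.81 and -2.18. Further ligands were under the filter and were picked after their values were seen. Tnfsf8, the ligand of CD30, was at 2.08 and 1.93 FPKM in Mb1Cre and 0.82, 0.77 and 0.80 FPKM in Mct1f/fMb1Cre cells on day 3, with a log2 fold change of -0.74 (limma adjusted p = 0.00375 in a fit of all 17596 genes). Cd70, the ligand of CD27, was at 1.08 and 0.95 FPKM against 0.19, 0.06 and 0.31 FPKM (-0.77, limma adjusted p = 0.00424 in the same fit). The ligand of CD30 and its receptor were thus both lower in Mct1f/fMb1Cre cells on day 3. For Cd70 this was not so, as its receptor Cd27 was not lower in mean (log2 fold change 0.06, limma adjusted p = 0.761).

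Of 31 adaptors and signal transducers downstream of the receptors, all passed the filter. On day 3, 0 were called higher and 1 lower in Mct1f/fMb1Cre cells, where 0.887% of all genes were called higher and 1.53% lower. The gene called lower was Traf1, an adaptor that binds TNFR2 and CD30 and is itself induced by NF-κB. It was at 127 and 122 FPKM in Mb1Cre and 80.8, 87.8 and 93.9 FPKM in Mct1f/fMb1Cre cells (log2 fold change -0.51 ± 0.0753, SE, limma adjusted p = 0.00141). On day 0 Traf1 was between 23.6 and 27.1 FPKM in all 4 libraries. In culture 7 of the 31 rose and 12 fell in Mb1Cre cells, where 24.8% of all genes were called higher and 33% lower. In Mct1f/fMb1Cre cells 7 rose and 11 fell, where 23.4% of all genes were called higher and 33.2% lower. The largest rises were those of Traf1 (2.24 and 1.75), Tnfaip3, the NF-κB inhibitor A20 (1.63 and 1.62), and Otulin, a linear deubiquitinase (1.50 and 1.45), and the largest falls those of Traf5 (-1.61 and -1.41), Traf3, the adaptor that holds NIK in check (-1.37 and -0.96), and Ikbkb, a kinase of the IKK complex (-1.29 and -1.31). By limma, 0 of these 31 genes were called for the interaction, where 3.23% of all genes were. An adjusted p under 0.05 with a change under the limit of 0.5 was seen for 6, among them Traf3 (0.41, limma adjusted p = 0.00974) and Traf1 (-0.49, limma adjusted p = 0.0227). An unadjusted p under 0.05 was seen for 10. For the interaction, the shares of all genes at these 2 thresholds were not taken. The median log2 fold change on day 3 was -0.03 over the adaptors and -0.01 over the ligands, against -0.01 over all genes tested and 0.07 over the 10 members.

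Of 18 other receptors of the family, 17 were in the table and 9 passed the filter. By limma, 0 were called between the genotypes on day 3, where 0.887% of all genes were called higher and 1.53% lower. For the interaction 0 were called, where 3.23% of all genes were. At an unadjusted p under 0.05 there were 4 and 3, a threshold whose share over all genes was not taken. In each of these comparisons 2 genes, Tnfrsf26 and Tnfrsf10b, had an adjusted p under 0.05 and missed only the limit on the fold change. An adjusted p under 0.05 on day 3 was seen for 15.2% of all genes. On day 3 the log2 fold change was -0.45 for Tnfrsf26 (limma adjusted p = 0.00377) and -0.38 for Tnfrsf10b (limma adjusted p = 0.0104). Tnfrsf17, the gene of BCMA, a further receptor of BAFF and APRIL, was under the filter and was picked after its values were seen. It was at 0.32 and 0.14 FPKM in Mb1Cre and 0.74 and 0.58 FPKM in Mct1f/fMb1Cre cells on day 0, and at 0.33 and 0.28 FPKM against 0.13, 0.20 and 0.00 FPKM on day 3. In a fit of all 17596 genes its change in culture was called in Mct1f/fMb1Cre cells (-0.58, limma adjusted p = 0.00114) and not in Mb1Cre cells (0.09, limma adjusted p = 0.490), and the interaction was not called (-0.67, limma adjusted p = 0.0555). In culture 1 of the 9 rose and 5 fell in Mb1Cre cells, where 24.8% of all genes were called higher and 33% lower. In Mct1f/fMb1Cre cells 2 rose and 5 fell, where 23.4% of all genes were called higher and 33.2% lower. Tnfrsf10b, a death receptor for TRAIL, rose by 1.26 and 0.79 on the log2 scale, and Tnfrsf22, a decoy receptor for TRAIL, rose by 0.68 in Mct1f/fMb1Cre cells. Tnfrsf21 (-1.89 and -1.97), Tnfrsf12a, the receptor for TWEAK (-1.70 and -1.18), and Tnfrsf4, the gene of OX40 (-0.91 and -1.15), fell. Their median log2 fold change was -0.52 in Mb1Cre and -0.53 in Mct1f/fMb1Cre cells, close to the medians of the 10 members.

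**Figure D5:**
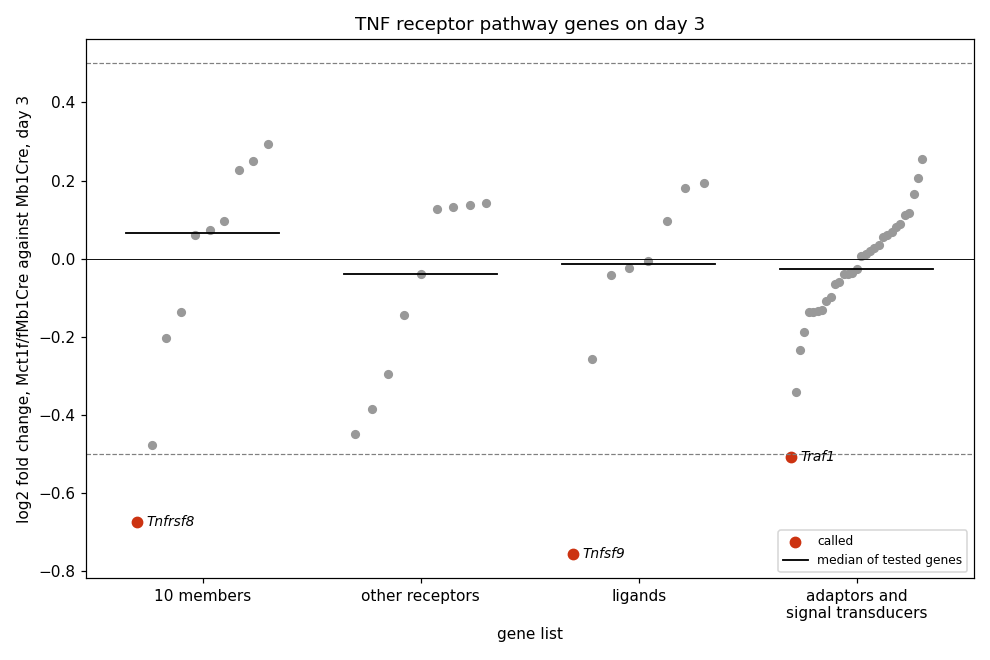
Log2 fold change of Mct1f/fMb1Cre against Mb1Cre cells on day 3 on the log2(FPKM + 1) scale (vertical axis) for each tested gene of the 10 members, the other receptors, the ligands and the adaptors; lines are medians, dashed lines the limit of 0.5, and called genes are red. Tnfrsf8, Tnfsf9 and Traf1 are the called genes and all lie below 0. Of all genes tested, 1.53% were called lower and 0.887% higher.

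For each member, the other tested gene with the highest Pearson's r of log2(FPKM + 1) over the 9 libraries was named, as a description, since the libraries share 2 days that most genes follow. These were Csf1r for Ltbr (r = 0.9999), the receptor of the macrophage growth factor CSF1 and a gene of the myeloid list, Tifab for Tnfrsf1a (0.999), Zer1 for Cd27 (0.9996), Esyt1 for Ngfr (0.999), P2rx7 for Tnfrsf1b (0.998), Mpp6 for Fas (0.999), Arid5a for Tnfrsf8 (0.999), Tmem199 for Tnfrsf13b (0.994), Prmt6 for Cd40 (0.987) and Junb for Tnfrsf13c (0.939). For the 7 members called in both genotypes between 2511 and 3650 genes had an r above 0.95, whereas 329 did for Cd40, 140 for Tnfrsf13b and 0 for Tnfrsf13c.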

How the data were processed

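The authors deposited 1 table of FPKM values for 17596 genes in 9 libraries, rounded to 2 decimals. The submitters' processing notes name Bowtie2, GRCm38 and mm10, and the annotation and quantifier are not given in the sources used here. Read counts were not used, and low values showed no common step, so that depth is unknown and precision rests on the 2 or 3 libraries per group. No libraries were copies, with at most 4.03% of genes sharing a value above 0 in a pair. Groups were taken from the sample labels.

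The 10823 genes whose mean was 1 FPKM or more were tested as log2(FPKM + 1) with limma 3.58.1 in R 4.3.3, with a mean for each of the 4 groups, 5 residual degrees of freedom, an empirical Bayes trend and Benjamini-Hochberg adjustment over all genes tested. The procedure was tested on simulated data. Figures were drawn with matplotlib 3.10.9 in Python 3.11.15. Members and gene lists were chosen with earlier results of these data known. All members are named, with up to 3 called genes with the largest change per direction from each other list, and the gene of highest r. Genes of the lists named though not called, single markers, and the ligands and Tnfrsf17 under the filter were picked after their values were seen. There were 22 alternative settings.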

Additional observations from a re-analysis of the deposited data

Results flagged for a closer look

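The change from day 0 to day 3 differed between Mb1Cre and Mct1f/fMb1Cre cells for 2 members by the interaction of genotype and day in limma. For Fas the difference of the rises was -0.72 on the log2 scale, and the rise was 2.78 in Mb1Cre and 2.06 in Mct1f/fMb1Cre cells. For Tnfrsf8 it was -0.70, with rises of 4.33 and 3.63. With a pseudocount of 0.1 the call of Tnfrsf8 was lost (-0.77, limma adjusted p = 0.141). The day 0 libraries differed in the Y-linked gene Ddx3y, so that a part of sex in these differences cannot be told apart. No group held more than 3 libraries, so that no group was tested for a library far from the others.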

How the results depend on the processing

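There were 2 or 3 libraries per group and no read counts, which limits precision, also at levels under 1 FPKM. On day 3 the count of members called between the genotypes, 1, was 3 with a pseudocount of 0.1 (Tnfrsf1a, Tnfrsf8 and Ngfr), 3 with no limit on the fold change (Tnfrsf13b, Fas and Tnfrsf8) and 0 with a log2 limit of 1. The count for the interaction, 2, was 0 with a log2 limit of 1. With a pseudocount of 0.1, Tnfrsf8 lost and Ngfr gained the interaction call. With a mean of at least 5 FPKM, 4 members were called in culture in Mb1Cre and 5 in Mct1f/fMb1Cre cells, against 7 and 8, because Ltbr, Cd27 and Ngfr were then not tested. Leaving out each library in turn gave 1 to 1 member called on day 3, 0 to 0 on day 0, 2 to 3 for the interaction, 6 to 9 in culture in Mb1Cre and 7 to 8 in Mct1f/fMb1Cre cells, the lowest counts without Mb1Cre replicate 2 of day 0, when Ngfr fell below the filter. Between the days, the deviations of same-numbered libraries were weakly correlated (-0.122 in Mb1Cre, 0.0533 and 0.0642 in Mct1f/fMb1Cre cells). In Mb1Cre, with 2 libraries per day, both numbers give the same value. Such correlations cannot show whether the libraries were paired. The fit of only the compared groups was not run for the interaction, which needs all 4. The median log2 change of all genes in culture, -0.12 in Mb1Cre and -0.14 in Mct1f/fMb1Cre cells, was -0.31 and -0.30 with equal totals and 0.06 in both with the median-of-ratios scaling. With the number as a replicate block the counts stayed at 1, 0, 2, 7 and 8, and the crossed pairing, added after seeing the data, gave 7 in Mb1Cre cells. Of the single log2 values, 27 turned direction, none of which had been called, and the causes were not tested. The interaction turned for Tnfrsf1a to -0.094 with a pseudocount of 5 and -0.024 with quantile normalization, for Ltbr to -0.021 with a pseudocount of 5, for Tnfrsf13c to 0.023 with equal totals and 0.00489 with the median-of-ratios scaling, and for Tnfrsf1b to 0.00021 with equal totals. The change of Tnfrsf13c in culture turned to 0.13 in both genotypes with the median-of-ratios scaling, and Cd27 on day 3 to -0.019 with the replicate block. Over the libraries left out in turn, the interaction ranged from -0.12 to 0.072 for Tnfrsf1b, -0.082 to 0.079 for Tnfrsf13c, -0.072 to 0.19 for Tnfrsf1a and -0.021 to 0.080 for Ltbr, the day 0 difference from -0.13 to 0.0073 for Tnfrsf13b and -0.088 to 0.14 for Tnfrsf8, and the day 3 difference from -0.028 to 0.15 for Cd27. Of all single values, 10 gained and 2 lost a call, among them Ngfr in culture in Mct1f/fMb1Cre cells at -0.42 with a pseudocount of 5.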
